A study of Homo sapiens with 2 samples.

Results

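The receptor tyrosine kinase genes followed here were 9, chosen by symbol, namely *EGFR*, *ERBB2*, *MET*, *AXL*, *INSR*, *IGF1R*, *FGFR1*, *EPHA2* and *DDR1*. All 9 were found, each as 1 of the 57736 genes in the deposited count table. The cells were A549, a human lung adenocarcinoma line labelled wild type, and the study's design text names an A549 line with a red fluorescent vimentin reporter. There were 2 groups with 1 AmpliSeq Transcriptome library each, cells labelled as a TGF-beta-induced model of epithelial to mesenchymal transition (EMT) and cells with no treatment. No dose or duration of TGF-beta is given in the sources used here. With 1 library per group there is no test of the treatment, no p-value and no spread between replicates, so every difference below compares 2 libraries.

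Receptor tyrosine kinases span the plasma membrane, bind a ligand outside the cell and phosphorylate one another's tails inside it. Adaptors dock on those tails and pass the signal to the RAS-ERK cascade and to the PI3K-AKT branch, while phosphatases, ubiquitin ligases and induced feedback inhibitors end it. In lung adenocarcinoma several of these receptors are drug targets, and AXL is widely described as a receptor of mesenchymal-like tumour cells.

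Of the 9 genes, 6 were lower by 2-fold or more in the TGF-beta EMT library (*MET*, *EPHA2*, *IGF1R*, *AXL*, *DDR1* and *EGFR*), 2 were higher by 2-fold or more (*INSR* and *ERBB2*) and *FGFR1* lay between. All 9 passed a filter of at least 5 CPM in 1 library, where CPM are counts scaled to library totals. Of the 15401 genes that passed it, 26.7% were lower and 22.0% higher by 2-fold or more, and these include 1334 genes with 3 or fewer counts in both libraries, without which the shares are 29.2% and 21.3%. The median log2 ratio of TGF-beta EMT over untreated was -1.99 over the 9 and 0.01 over all 15401. The exact 95% counting interval left out equality for *MET*, *EPHA2*, *IGF1R* and *AXL* below and for *INSR* and *ERBB2* above. Over all genes tested 16.8% lay below and 9.99% above by that rule. With 20 CPM as the minimum, 5 of the 9 remained, with 3 lower by 2-fold or more (*MET*, *EPHA2*, *IGF1R*) and 2 higher (*INSR*, *ERBB2*), and all 5 intervals left out equality. Of the 5341 genes at that level 36.0% were lower and 18.5% higher by 2-fold or more, and 35.3% and 20.1% by interval. Reads per gene were few, and the *ERBB2* difference lay in counts not found on its own exons, at a segment shared with a neighbouring gene, described further on. The directions of all but *FGFR1* hold for scaling over all genes. Scaling on ribosomal protein genes adds 3.53 to every log2 ratio, which makes *EPHA2*, *IGF1R*, *AXL*, *DDR1* and *EGFR* higher in the TGF-beta EMT library and leaves *MET* at -0.46. Fewer cells and less RNA per cell cannot be told apart in such libraries.

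**Figure D1:**
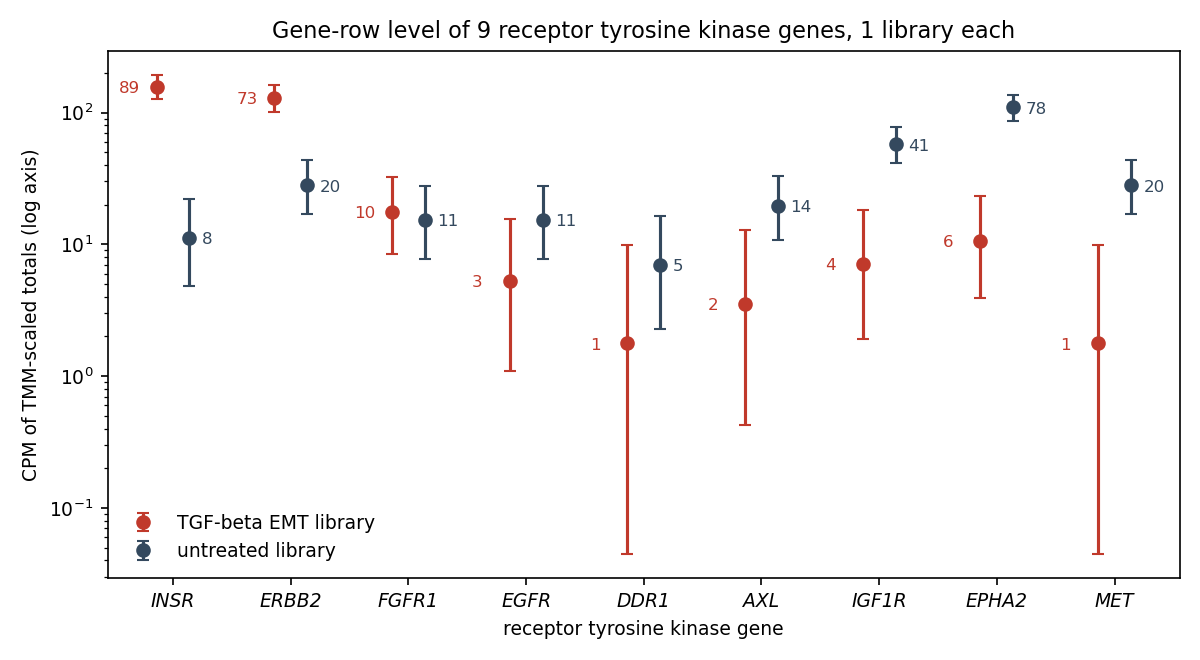
CPM of TMM-scaled totals (log axis) for the 9 genes, TGF-beta EMT library left and untreated library right of each gene's tick, with exact 95% Poisson intervals and the rounded count beside each point. *INSR* and *ERBB2* stand higher in the TGF-beta EMT library, with 89 and 73 counts, and *EPHA2* has 6 counts there against 78 in the untreated library.

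The libraries were shallow, with 597133 rounded counts in the TGF-beta EMT library and 674784 in the untreated library, of which the 10 most counted genes held 43.7% and 32.7%. General transcripts differed between them as well. Of 70 ribosomal protein genes tested, 60 were lower by 2-fold or more (median log2 ratio -3.28), and *GAPDH* had 115 counts in the TGF-beta EMT library against 2764 in the untreated library. *VIM* (56 against 452 counts, log2 ratio -2.68) and the TGF-beta target *TGFBI* (15 against 407, -4.43) were lower in the library labelled TGF-beta EMT. The direction of both goes against that label under the scaling used. Scaling on ribosomal protein genes, which adds 3.53 to every log2 ratio, would make *VIM* higher and leave *TGFBI* lower. The epithelial cadherin *CDH1* had 4 counts against 1. Epithelial markers summed to 184 CPM in the TGF-beta EMT library against 408 CPM in the untreated library, but they did not share 1 direction. *KRT7* (32 against 179 counts) and *KRT8* (16 against 53) were lower by 2-fold or more. *CDH1* and *EPCAM* (7 against 4) were above by at least as much, at small counts, and *KRT19* (45 against 51) lay between. Over the 5 epithelial markers tested the median was 0.16. Counting intervals left out equality for 2 of them below and 0 above. Markers of other cells were sparse, with 6 leukocyte markers summing to 10 counts against 35, 4 endothelial markers to 31 against 23 and 6 fibroblast markers to 55 against 70, of which the receptor kinase *PDGFRB* gave 48 and 52. Of these markers *KRT18*, *COL3A1* and *CD14* were at 0 in the TGF-beta EMT library, against 3, 2 and 10 counts in the untreated library, and *LUM* and *LYZ* were at 0 in both. The part of these general differences or of these markers in the receptor values was not tested.

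The make-up of the summed receptor counts differed between the libraries. The 9 genes together had 189 counts in the TGF-beta EMT library and 208 in the untreated library, which is 334 and 292 CPM. The log2 ratio of that sum was 0.20 (95% counting interval -0.09 to 0.49). *INSR* and *ERBB2* gave 85.7% of that sum in the TGF-beta EMT library (exact 95% binomial interval 79.9% to 90.4%) and 13.5% in the untreated library (9.14% to 18.9%). The sum and these shares include *ERBB2* counts that were not found on its exons. Without *ERBB2* the sum was 116 counts against 188, a log2 ratio of -0.36 (-0.71 to -0.02). The 7 genes other than *INSR* and *ERBB2* had 27 counts against 180, a log2 ratio of -2.40 (95% counting interval -3.04 to -1.81). *INSR* and *ERBB2* were set apart because they were the higher genes in these data. The direction of this ratio and of the shares follows from that choice. These are shares of counts and not of transcripts, because AmpliSeq reads a short amplified segment per gene and its yield differs between genes. For the same reason the level of one receptor is not set against the level of another.

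The insulin and IGF receptors went in opposite directions. *INSR* encodes the insulin receptor (ENSG00000171105, hg19 chromosome 19, 7112266 to 7294045, minus strand) and *IGF1R* the closely related receptor of insulin-like growth factors (ENSG00000140443, chromosome 15, 99192200 to 99507759, plus strand). *INSR* had 89 counts in the TGF-beta EMT library and 8 in the untreated library, or 158 and 11.2 CPM. It was 14.0-fold higher in the TGF-beta EMT library, with a log2 ratio of 3.81 (2.77 to 5.07), at percentile 99.5 of all genes tested. *IGF1R* had 4 counts in the TGF-beta EMT library and 41 in the untreated library, or 7.08 and 57.5 CPM. It was 8.12-fold lower, with a log2 ratio of -3.02 (-4.96 to -1.56), at percentile 5.25. The Poisson intervals of the CPM values did not overlap between libraries for either gene, and the share of all genes without overlap was not counted. By the ratio interval 16.8% of all genes tested lay below equality and 9.99% above.

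The *INSR* counts lay almost wholly in 1 exon in the TGF-beta EMT library. Exon 2 of the 22 exons of transcript ENST00000302850 (chr19:7267356-7267907, coding) held 97.8% of the gene's exon counts there (87.1 of 89.1) and 63.2% in the untreated library (5.15 of 8.15). In that exon alone the log2 ratio was 4.46 (3.18 to 6.12). Outside it the gene had 2 counts in the TGF-beta EMT library against 3 in the untreated library, too few for a ratio. The high *INSR* value therefore rests on reads of exon 2. AmpliSeq reads a short segment per gene, so the few counts outside exon 2 do not measure the rest of the transcript.

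*INSR* exon 2 is shown beside *IGF1R* because these receptors are closely related and reads of one could be counted for the other. Both are given around their longest identical run, in the reference transcripts of GENCODE release 29, whose exon lengths equal those in the deposited table. The sequences run 5′ to 3′ on the sense strand, and capitals mark the longest run of identical bases between *INSR* exon 2 and the *IGF1R* transcript ENST00000268035, which is 23 bases.
INSR exon 2, bases 147 to 289: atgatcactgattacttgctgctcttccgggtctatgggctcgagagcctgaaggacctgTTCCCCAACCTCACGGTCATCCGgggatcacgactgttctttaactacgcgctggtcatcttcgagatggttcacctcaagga
IGF1R exon 2, bases 144 to 286: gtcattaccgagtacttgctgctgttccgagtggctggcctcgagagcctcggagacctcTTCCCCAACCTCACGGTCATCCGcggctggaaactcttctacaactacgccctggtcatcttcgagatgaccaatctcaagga
The *IGF1R* window lies in exon 2 (chr15:99250791-99251336 in hg19), where neither library had an *IGF1R* count. The windows shared 112 of 143 bases (78.3%). None of the 523 runs of 30 bases in *INSR* exon 2 occurred in a transcript of another gene of that release, on either strand.

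The exons that held most untreated *IGF1R* counts held none in the TGF-beta EMT library. In the untreated library exon 5 of 21 (chr15:99442706-99442850) held 25.9 counts, 62.9% of the gene's exon counts, and the next exon in the transcript, exon 6 (chr15:99451914-99452128), held 12.1. Both exons were at 0 in the TGF-beta EMT library, whose 3.66 exon counts lay in exon 1, exon 14 and the last exon. The last exon held 2 of them (54.6%), and as many, 2, in the untreated library. Taking a floor of 3 counts for the 0, exon 5 was 6.87-fold lower. The counting interval, taken at 0 counts, reached up to a log2 ratio of -2.38, a smaller difference than that. Outside exon 5 the gene had 4 counts against 15 (log2 ratio -1.57, -3.62 to 0.08), and exon 6 held most of these untreated counts. Outside both exons the untreated counts were 1 at chr15:99454544-99454670, 0.126 in exon 14 and 2 in the last exon. The TGF-beta EMT library had its 3.66 there. The segment where the untreated reads accumulated is shown across the junction of exons 5 and 6, with the first 50 bases of exon 6 in capitals.
IGF1R exon 5 to exon 6: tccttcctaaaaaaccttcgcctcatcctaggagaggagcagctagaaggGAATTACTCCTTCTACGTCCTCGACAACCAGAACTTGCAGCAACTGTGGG

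**Figure D2:**
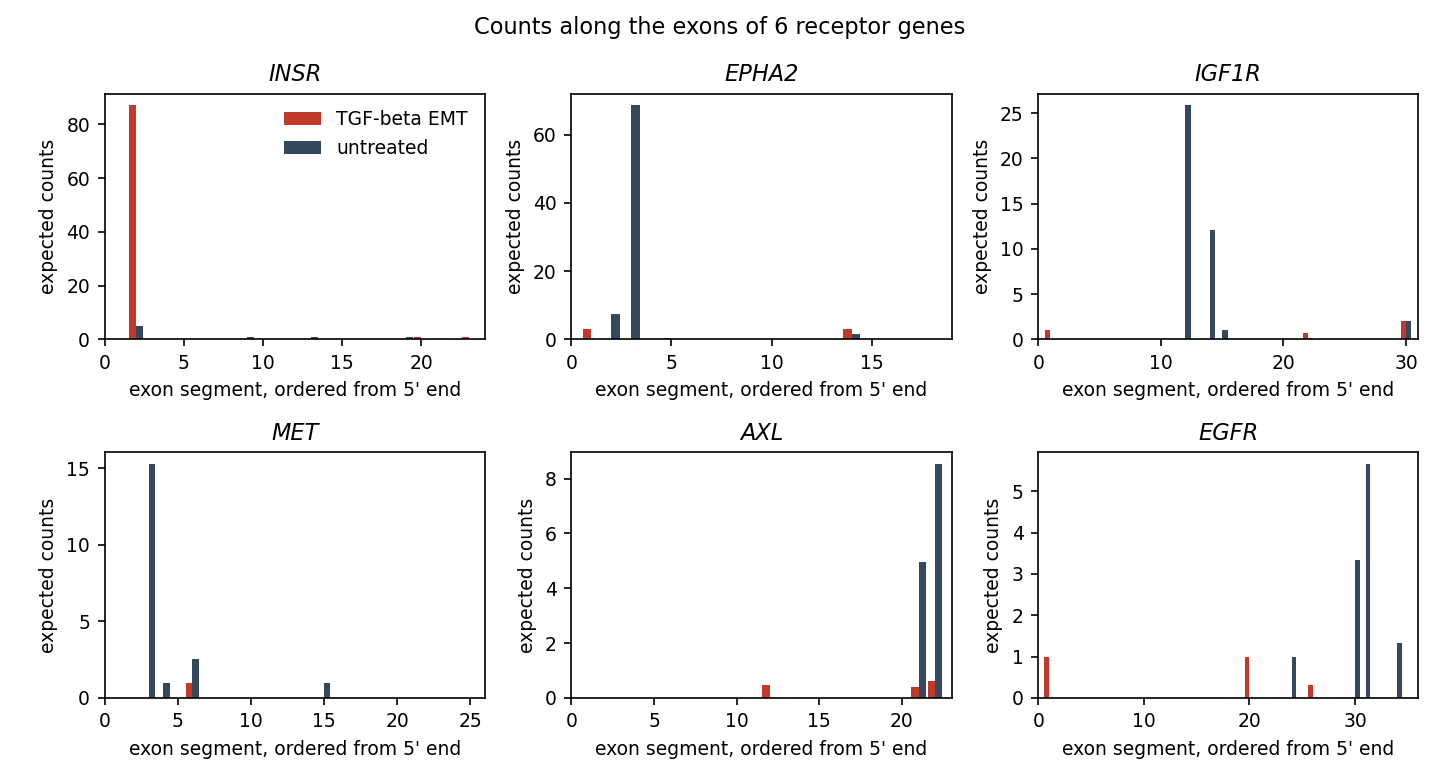
Expected counts in each exon segment of 6 receptor genes, ordered from the 5′ end (exon entries that overlap were merged), with the TGF-beta EMT library as the left bar and the untreated library as the right bar. *INSR* has 87.1 counts in 1 segment in the TGF-beta EMT library, and the tallest untreated bars of *EPHA2*, *IGF1R*, *MET* and *EGFR* have no bar of the TGF-beta EMT library beside them.

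The top untreated exons of *EPHA2*, *MET* and *EGFR* were also at 0 in the TGF-beta EMT library, where *MET* and *EGFR* had 1 and 3 counts in all. *EPHA2* encodes a receptor of membrane-bound ephrin-A ligands (ENSG00000142627, chromosome 1, 16450832 to 16482582, minus strand). It had 6 counts in the TGF-beta EMT library against 78 in the untreated library, or 10.6 and 109 CPM. It was 10.3-fold lower, with a log2 ratio of -3.36 (-4.85 to -2.18), at percentile 3.74 of all genes tested. Exon 3 of 17 (chr1:16474873-16475542, coding) held 68.6 of 77.5 untreated counts (88.5%) and exon 2 held 7.38. Neither exon held a count in the TGF-beta EMT library, where 3 counts lay in exon 1, 3 in exon 13 and 0.25 in exon 4. Exon 1, with 48.0% of the TGF-beta EMT counts, is overlapped on the other strand by *RP11-276H7.2*, a gene with 12.5 counts against 8. Taking a floor of 3 counts for the 0, exon 3 was 18.2-fold lower. Its counting interval, taken at 0 counts, reached up to a log2 ratio of -3.85, a smaller difference than that. The counts outside exon 3 were 6 against 9, a log2 ratio of -0.25 (-2.02 to 1.40). Exon 2, next to it, held most of those untreated counts (7.38), and 1.5 lay in exon 13. The segment is shown with the last 50 bases of exon 2 in lower case and the first 50 of exon 3 in capitals.
EPHA2 exon 2 to exon 3: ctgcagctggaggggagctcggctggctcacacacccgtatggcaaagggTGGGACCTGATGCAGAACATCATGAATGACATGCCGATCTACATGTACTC

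*MET* encodes the receptor of hepatocyte growth factor, a motility factor (ENSG00000105976, chromosome 7, 116312444 to 116438440, plus strand). It had 1 count in the TGF-beta EMT library and 20 in the untreated library, or 1.77 and 28.0 CPM. The log2 ratio was -3.99 (-9.36 to -1.34), the smallest of the 9 and at percentile 1.53 of all genes tested. Exon 2 of 21 (chr7:116339125-116340338, coding and UTR) carried 77.3% of the untreated exon counts (15.3 of 19.8) and 0 in the other library. The only count of the TGF-beta EMT library lay in another coding exon (chr7:116371722-116371913), which held 2.52 untreated counts.

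*EGFR*, the receptor of epidermal growth factor (ENSG00000146648, plus strand of chromosome 7, 55086714 to 55324313), gave 3 counts in the TGF-beta EMT library and 11 in the untreated library, or 5.31 and 15.4 CPM. Its log2 ratio of -1.54 (-4.02 to 0.38) did not exceed counting error, and it was -2.17 when the 2.5 expected counts of the TGF-beta EMT library were rounded to the even number. Exons 24 and 25 of 28 held 3.34 and 5.66 of the 11.3 untreated counts and 0 in the TGF-beta EMT library. There the counts were 1 in exon 1, 1 in the last exon of a shorter transcript (chr7:55238000-55238738) and 0.302 in an exon that the antisense gene *EGFR-AS1* overlaps. The top exon of *EGFR* was not the same in the 2 libraries. Exon 1, level with the last exon of the shorter transcript, held 43.4% of the exon counts in the TGF-beta EMT library. Exon 25 held 49.98% in the untreated library.

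Other genes also had untreated reads gathered in 1 exon and TGF-beta EMT reads elsewhere. Among 6302 genes with at least 8 untreated and 1 TGF-beta EMT exon counts, the TGF-beta EMT library had under 1% of its counts in the top untreated exon in 15.7%, and among the 2357 of them that were lower by 2-fold or more it was 31.1%. The exon was chosen in the untreated library, which favours that library. *EGFR*, *MET*, *IGF1R* and *EPHA2* were 4 such genes, and *DDR1*, with under 8 untreated counts, also had 0 there.

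*AXL* and *DDR1* were lower at small counts. *AXL* encodes a receptor of the vitamin K-dependent ligand GAS6 (ENSG00000167601, chromosome 19, 41725108 to 41767671, plus strand). It had 2 counts in the TGF-beta EMT library and 14 in the untreated library, or 3.54 and 19.6 CPM, with a log2 ratio of -2.47 (-5.65 to -0.35). Exons 18 and 19 of 19 held 4.96 and 8.54 untreated counts, and 0.384 and 0.616 of the 1.46 exon counts in the TGF-beta EMT library, so that exon 19 was the top exon in both, with 42.2% and 63.3%. *DDR1*, a receptor of collagen (ENSG00000204580, chromosome 6, 30844198 to 30867933, plus strand), had 1 count in the TGF-beta EMT library and 5 in the untreated library. Its log2 ratio of -1.99 (-7.55 to 1.17) did not exceed counting error, and exon 13 of 17 held the largest part of the untreated counts, 45.6%.

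*FGFR1*, a receptor of fibroblast growth factors (ENSG00000077782, minus strand of chromosome 8, 38268656 to 38326352), gave 10 counts in the TGF-beta EMT library and 11 in the untreated library, or 17.7 and 15.4 CPM. The log2 ratio was 0.20 (-1.19 to 1.57), an interval that leaves room for more than 2-fold in either direction. The segment with the most counts in both (chr8:38277051-38277862, an exon of a non-coding transcript) held 52.2% of the TGF-beta EMT counts and 27.9% of the untreated counts, the lowest top share of the 9 in the untreated library.

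**Figure D3:**
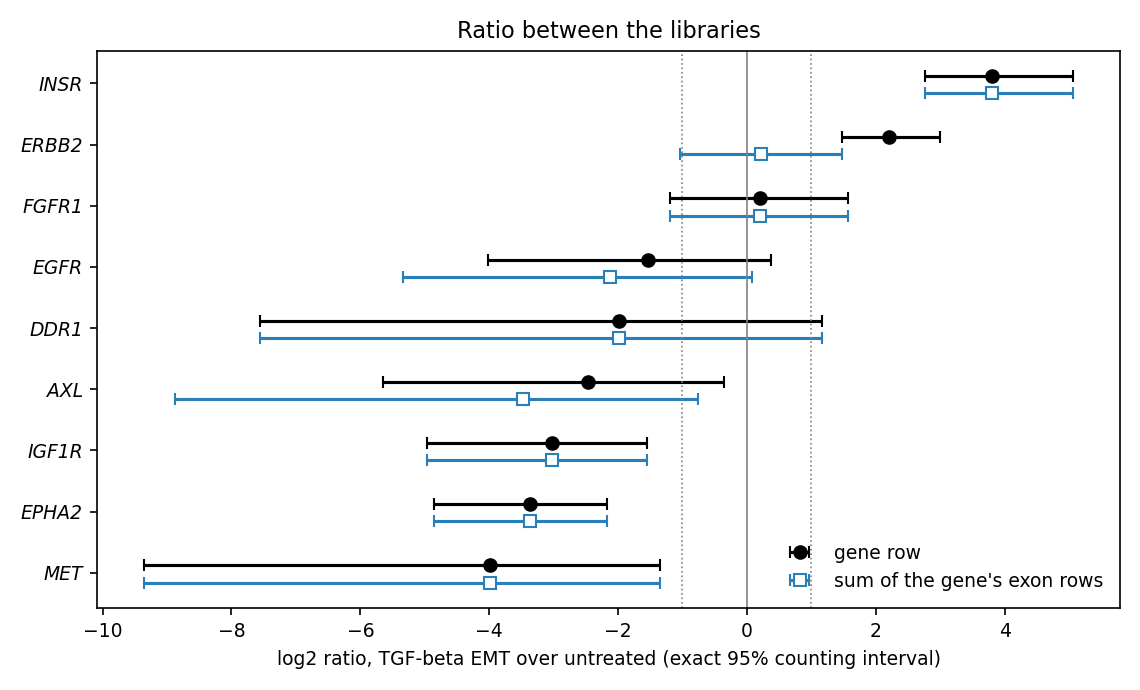
Log2 ratio of the TGF-beta EMT library over the untreated library with its exact 95% counting interval, from each gene's deposited gene value (filled circles) and from the sum of its exon values (open squares); dotted lines mark 2-fold. The values nearly coincide for *INSR*, *FGFR1*, *DDR1*, *IGF1R*, *EPHA2* and *MET*, and for *ERBB2* they are 2.20 and 0.22.

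The higher *ERBB2* level stood in its gene value and not in the sum of its exons. It encodes HER2, the ligandless partner of the other EGFR family receptors (ENSG00000141736, chromosome 17, 37844167 to 37886679, plus strand), and had 73 counts in the TGF-beta EMT library against 20 in the untreated library, or 129 and 28.0 CPM. The log2 ratio was 2.20 (1.47 to 2.996), at percentile 93.5 of all genes tested. The exons of *ERBB2*, however, held only 12.5 of 72.5 expected counts in the TGF-beta EMT library (17.2%) and 12.9 of 20.3 in the untreated library (63.6%). The exon with the most held 70.5% of those exon counts in the TGF-beta EMT library and another exon 35.3% in the untreated library. Of 4006 genes with at least 10 counts in the TGF-beta EMT library, 1.45% had under 50% of their counts on their exons.

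The same number of counts was in excess on *MIEN1*, a gene on the other strand that overlaps the 3′ end of *ERBB2*. *MIEN1* exons held 60.03 counts more than the *MIEN1* gene value in the TGF-beta EMT library and 7.41 more in the untreated library, and the *ERBB2* exons were short by 60.03 and 7.41. The gene values of the pair summed to 159.9 and 43.8, as did their exon values. The shared segment is *MIEN1* exon 2 of 4 (chr17:37886447-37886544, minus strand, coding), which lies inside an exon of the non-coding *ERBB2* transcript ENST00000584888 (chr17:37886276-37886679). It is printed because reads of these bases cannot be assigned to either gene without strand, and the treatment of strand is not given in the sources used here.
MIEN1 exon 2: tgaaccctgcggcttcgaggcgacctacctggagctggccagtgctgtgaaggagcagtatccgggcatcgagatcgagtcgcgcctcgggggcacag
This exon held 118 counts in the TGF-beta EMT library and 15.7 in the untreated library among *MIEN1* exon values. All 69 of its runs of 30 bases were found in *ERBB2* transcripts on the opposite strand, and none in another gene on its own strand.

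Away from the overlap the *ERBB2* counts were too few to show a direction. The *ERBB2* exons outside *MIEN1* held 3.69 counts in the TGF-beta EMT library against 9.38 in the untreated library, a log2 ratio of -0.83 (-2.99 to 1.01), and those inside it 8.81 against 3.55. Over all *ERBB2* exons the log2 ratio was 0.22 (-1.04 to 1.47). *MIEN1* itself, from its gene value, had 87 counts against 24 and a log2 ratio of 2.19 (1.53 to 2.91). A difference in *ERBB2* was thus not detectable at this depth in the reads that belong to *ERBB2* alone.

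**Figure D4:**
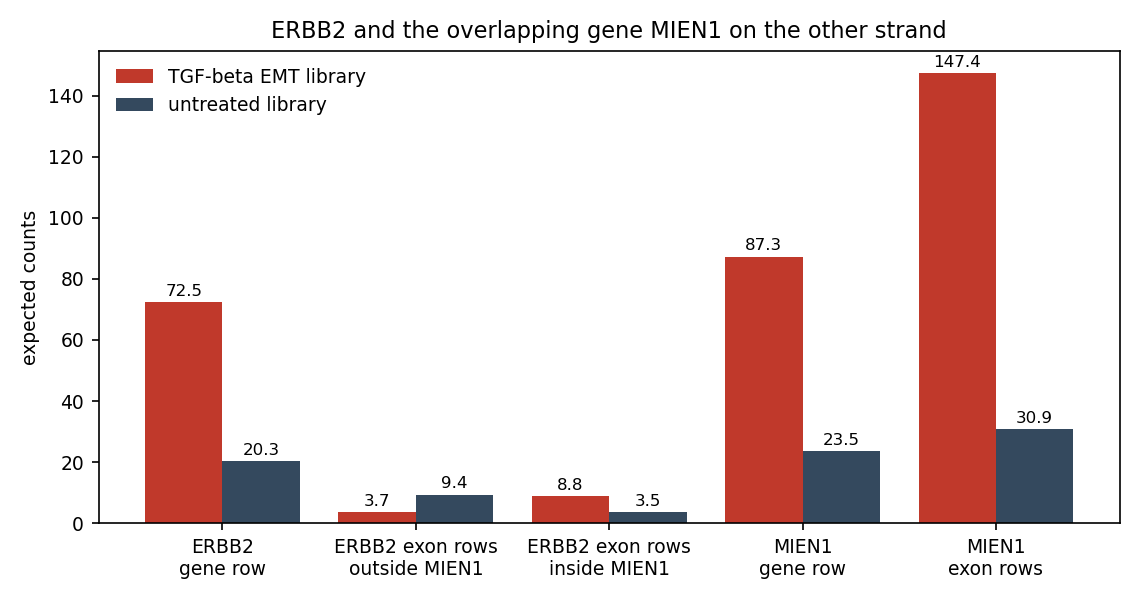
Expected counts of *ERBB2* and *MIEN1* in the TGF-beta EMT library (left bars) and the untreated library (right bars), as gene values and as sums of exon values. The *ERBB2* exons outside *MIEN1* hold 3.69 counts in the TGF-beta EMT library and 9.38 in the untreated library, while its gene values are 72.5 and 20.3.

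Of 49 other receptor tyrosine kinase genes, 38 passed the filter. By 2-fold or more 6 were higher (*PDGFRA* among them, at 3 counts against 1) and 8 lower. Of all genes tested 22.0% were higher and 26.7% lower by that rule. The median log2 ratio of the 38 was 0.16, against 0.01 over all genes tested. The neurotrophin receptor gene *NTRK2* was higher, with 24 counts in the TGF-beta EMT library against 3 in the untreated library (log2 ratio 3.34, 1.62 to 5.71). *MST1R*, the receptor of macrophage-stimulating protein and nearest relative of *MET*, had 7 against 23 (-1.38, -2.84 to -0.11).

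Of 20 ligand genes tested, 3 were higher (*NRG3* among them, at 3 counts against 1) and 3 lower by 2-fold or more (median 0.34). The collagen gene *COL1A1*, whose product is a DDR1 ligand, had 356 counts in the TGF-beta EMT library against 196 in the untreated library, and *COL4A2* had 10 against 65. Of the 7 genes for IGF binding proteins, secreted carriers that control how much IGF reaches its receptor, 6 were lower by 2-fold or more and 0 higher (median -1.54), against 26.7% and 22.0% of all genes tested. *IGFBP3* had 5 counts against 227 (log2 ratio -5.17, -6.81 to -3.93) and *IGFBP4* had 28 against 250 (-2.82, -3.44 to -2.26). Together the 7 had 61 counts in the TGF-beta EMT library and 560 in the untreated library.

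The shares of relay genes inside the cell that were lower or higher lay near those of all genes tested, 26.7% and 22.0%. Of 20 adaptors and proximal effectors, 5 were lower and 4 higher by 2-fold or more (median 0.14). *SHC1*, an adaptor for most of these receptors, had 17 counts in the TGF-beta EMT library against 62 in the untreated library, the insulin and IGF receptor adaptor *GRB10* had 16 against 67, and the neuronal relative *SHC2* had 15 against 4. In the RAS-ERK cascade 3 of 10 were lower and 2 higher (median -0.15). *BRAF* had 2 counts against 26 (log2 ratio -3.36, -6.48 to -1.37), and *MAP2K1*, which encodes MEK1, had 23 against 59. In the PI3K-AKT-mTOR branch 5 of 17 were lower and 4 higher (median -0.15), *PIK3R3* among the higher ones at 3 counts against 1. *RICTOR*, the defining subunit of mTOR complex 2, had 122 counts against 40 (1.94, 1.42 to 2.50), with 98.8% and 94.96% of them in the same exon. *TSC1* and *TSC2*, whose products form 1 inhibitory complex, had 2 against 21 and 15 against 4.

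**Figure D5:**
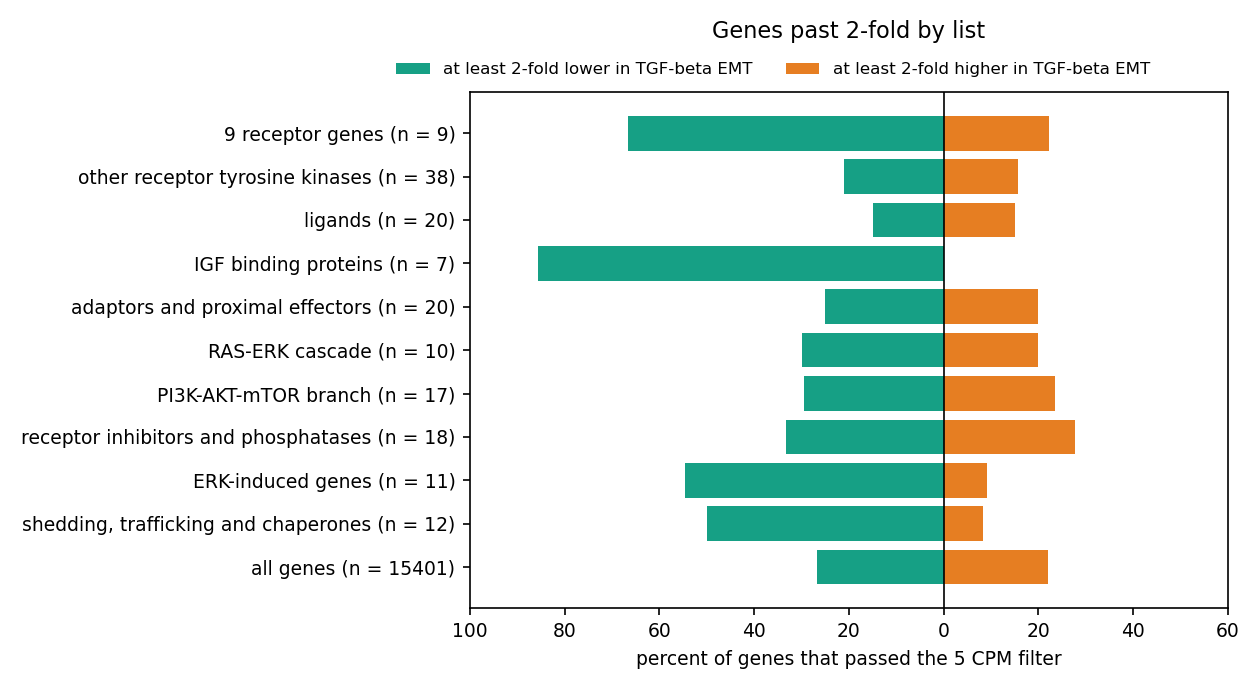
Percent of the genes that passed the 5 CPM filter that were lower (left) or higher (right) by 2-fold or more in the TGF-beta EMT library than in the untreated library, for the 9 receptors, 9 lists of related genes and all 15401 genes. The longest lower bars are those of the IGF binding proteins (6 of 7) and of the 9 receptors (6 of 9), against 26.7% of all genes.

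Of 11 ERK-induced genes tested 6 were lower and 1 higher by 2-fold or more (median -1.25), against 26.7% and 22.0% of all genes tested. The AP-1 subunit gene *FOSL1* had 1 count in the TGF-beta EMT library against 145 in the untreated library (log2 ratio -6.84, -12.16 to -4.34), *IER3* had 1 against 49 and *CCND1*, which encodes cyclin D1, had 8 against 81. *EGR1*, an early ERK target, had 115 against 168 and did not reach 2-fold. The feedback phosphatase gene *DUSP6* had 4 against 1, *ETV4* had 5 against 6 and *SPRY4* had 3 in each library. Of 18 receptor inhibitors and phosphatases 6 were lower and 5 higher (median 0.13). The ERK phosphatase genes *DUSP5* (3 counts against 52) and *DUSP4* (15 against 42) were lower. Of 12 genes for shedding, trafficking and chaperones 6 were lower and 1 higher (median -0.95). *HSP90AB1*, a chaperone that many receptor kinases need, had 10 counts against 102, and the sheddase gene *ADAM10* had 2 against 18. The median of the ribosomal protein genes, -3.28, was below that of every list given here.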

How the data were processed

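RNA of 1 library per group, 10 ng each, was amplified with the AmpliSeq Transcriptome kit, per the labels' protocols. The deposited table, not normalized by the authors, gave expected counts, which may be fractional, per gene, with exon values that divide a gene's count over its exons. Coordinates are hg19, a build that the submitters' processing notes name together with DESeq. Neither aligner, counter nor use of strand is given in the sources used here.

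Expected counts were rounded (0.5 upwards). Libraries were scaled by TMM in edgeR 4.0.16 under R 4.3.3 (factors 0.946 and 1.06 for TGF-beta EMT and untreated), and the ratio is TGF-beta EMT over untreated with no pseudocount. A count of 0 was set to a floor of 3 counts (5.31 and 4.21 CPM), and no ratio is printed where both counts were at or under it. Tallies and medians include such genes at the ratio of their counts, with 0 at the floor (0.34 for equal counts). Ratio intervals are exact 95% Clopper-Pearson intervals given the sum of both counts, and CPM intervals are exact 95% Poisson ones. Since PCR reads carry no molecular identifiers, intervals and floors describe counting error alone. Ratios and intervals were run on simulated Poisson counts, the model that the intervals assume, with changes only in genes of at least 20 CPM. That checks the calculation and not how well the model describes these libraries.

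The main exon of a gene is the exon segment with the most counts over both libraries. Members and gene lists were chosen with earlier results of these data known. Genes outside the 9 were named by a rule, up to 3 higher and 3 lower per list with at least 20 CPM, at least 2-fold and an interval leaving out equality. Whatever their values, the rule names *VIM*, *TGFBI*, *CDH1*, *CDH2*, *EPCAM*, *GAPDH* and *ACTB* as well. Of these, *CDH2* had 11 counts in the TGF-beta EMT library against 25 in the untreated library, and *ACTB* had 34 against 463. *EGR1*, *KRT19*, *PDGFRB*, *MIEN1*, *RP11-276H7.2*, *PDGFRA*, *NRG3*, *PIK3R3*, *DUSP6*, *ETV4*, *SPRY4* and the markers given at 0 fall outside it and were chosen after their values were seen. Some genes that the rule takes are not reported here. Of 319 list entries, 1 symbol (*PECAM1*) was not matched. Tried were DESeq2 1.42.0 size factors, other scalings, filters, rounding and exon subsets.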

Additional observations from a re-analysis of the deposited data

How the results depend on the processing

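No paired analysis was possible because each group has 1 library, and for the same reason no library could be left out in turn. The receptor ratios depended on the scaling reference. Under DESeq2 size factors, total counts, upper quartile, unrounded counts and log2(CPM + 1), 8 of the 9 receptors kept their direction, and *FGFR1* ranged from -0.02 to 0.28. Scaling on ribosomal protein genes adds 3.53 to every log2 ratio by construction. It turned *AXL* to 1.06, *DDR1* to 1.54, *EGFR* to 1.99, *EPHA2* to 0.16, *IGF1R* to 0.51 and the median of the 9 to 1.54, moved *MET* to -0.46, and left 6 receptors higher by 2-fold or more, 0 lower and 0 with an interval below equality. All genes then gave 21024 higher and 112 lower, and the lists 162 higher and 3 lower.

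A minimum of 20 CPM left 3 receptors lower, 986 genes higher and 1921 lower in all, and 10 list genes higher, against 25 at 5 CPM, since fewer genes entered. A minimum of 1 CPM and no minimum each gave 6903 higher and 7430 lower, since 1 count exceeds 1 CPM. DESeq2 size factors, which shift every log2 ratio by -0.22, left 16 list genes higher.

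Exon alternatives for counts of receptors, and the *MIEN1* split, were chosen after seeing the data, as was rounding to the even number, which changed no receptor's direction or side of 2-fold but took *EGFR* to -2.17 against -1.54, since its 2.5 expected counts in the TGF-beta EMT library became 2 and not 3. *ERBB2* was -0.83 outside *MIEN1*, -0.99 without its main exon and 0.22 over all exons. From all exons 1 receptor was higher by 2-fold or more. Without main exons 0 were higher and 4 lower, with *EPHA2* at -0.25. *INSR* and *DDR1*, with 2 against 3 and 1 against 3 counts there, had no ratio and could not be called. In *IGF1R*, *AXL* and *EGFR*, among the 4 lower, the exon next to the main one held most of the untreated counts left. The share of all genes by these exon rules was not counted. Depth limits *DDR1*, *EGFR*, *AXL* and *MET*, each with 1 to 3 counts in the TGF-beta EMT library.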
